A study of Mus musculus with 8 samples.

Results

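The genes described here are 37 protein-coding mouse genes for glucose uptake, the enzymes of glycolysis from hexokinase to lactate dehydrogenase, lactate export, the control of pyruvate dehydrogenase, and the first steps of glycogen synthesis. They were taken by symbol from a list of the pathway, and all 37 were found among the 55421 gene identifiers of the deposited table. Poly-A RNA was sequenced from mouse embryos at E9.25 with 9 to 11 somites that were wild type or Gcnf-/-, homozygous for a mutant allele of the gene now named Nr6a1. Each library held an anterior piece (the first pharyngeal arch and the tissue in front of it) or a posterior piece (the second arch and the tissue behind it). There were 4 groups of 2 libraries, numbered 159 and 163 for the mutant and 153 and 156 for the wild type, with the same numbers in both regions. The strain, the part of the gene that the allele lacks and the number of embryos in a library are not given in the labels, and no agent or treatment was applied. The labels do not say that the libraries of a group are separate embryos, so each p-value reflects only how these libraries varied, which may be technical.

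Glycolysis splits glucose into pyruvate in the cytoplasm, and lactate dehydrogenase turns pyruvate into lactate, which restores the oxidised cofactor that the pathway needs. Most steps can be run by several isozymes from separate genes, which differ in tissue and in regulation. Many of these genes are textbook targets of the hypoxia-inducible factors, and embryos at this stage are known for a high rate of glycolysis. Gcnf belongs to the nuclear receptors without a known ligand and acts as a repressor of transcription, and embryos without it die at midgestation.

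The libraries held 27064114 to 52957988 reads in genes, recovered from the TPM values (relative transcript abundance, corrected for gene length), and 3 reads in a gene of 1 kb corresponded to 0.2 to 0.403 TPM. The correlation between the libraries of a group, across genes, was 0.984 to 0.992. Nr6a1 lay between 116 and 239.8 TPM in the mutant libraries and between 157 and 205 TPM in the wild-type libraries, and since the deleted part is not given its level does not check the labels. The regions did match their labels: in the wild type all 7 genes of a list of forebrain and anterior markers fell from anterior to posterior and all 8 genes of a list of posterior markers rose (limma, adjusted p under 0.05). Both libraries numbered 159 held Xist and the other 6 held Ddx3y of the Y chromosome, so sex was unequal between the genotypes. The mutant libraries differed from each other: 27 of the 37 members were lower in mutant anterior library 159 than in 163, whereas in the mutant posterior pieces 28 were higher in 159 than in 163.

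In the anterior pieces 16 members were higher in the mutant and 1 was lower, of 36 tested, at an adjusted p under 0.05 in a limma fit of log2(TPM + 1). Of all 16699 genes tested, 13.3% were called higher and 10.2% lower in that comparison. The median difference of the members was 0.44, against 0.02 over all genes tested. In the posterior pieces 13 members were higher and 1 was lower, where 8.56% of all genes tested were called higher and 2.93% lower (8.29% and 6.74% with median-of-ratios scaling, 7.34% and 6.29% with quantile normalization). There the members had a median of 0.47, against 0.05 over all genes. The same 12 members were called higher in both regions: Slc2a1, Gpi1, Pfkp, Pfkfb3, Aldoa, Aldoc, Ldhb, Pdk1, Pdk2, Slc16a3, Pgm1 and Gys1. The share of all genes called higher in both regions was not counted, so these 12 have no background to be compared with. Slc16a1 was called lower in both. The mutant libraries of the 2 regions carry the same numbers, so these counts may not come from separate embryos.

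**Figure D1:**
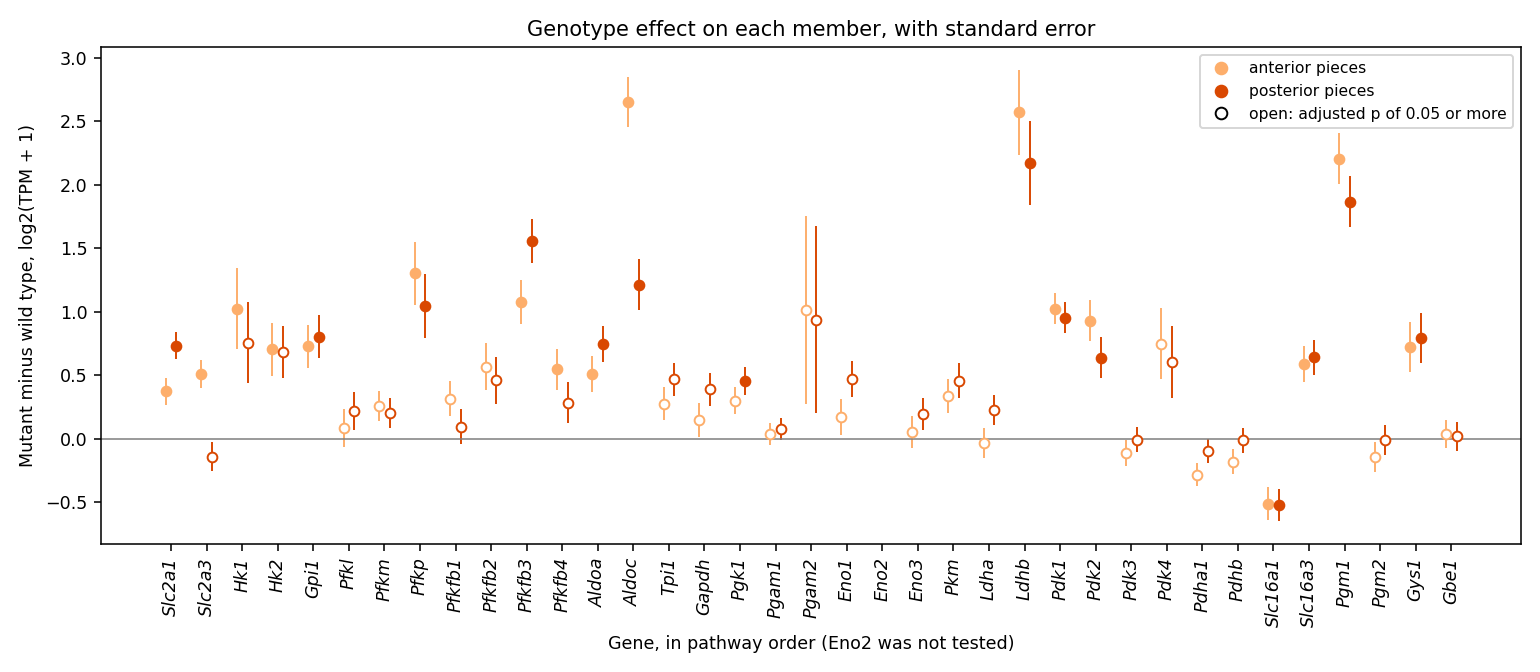
Difference between mutant and wild type in log2(TPM + 1) for each member in pathway order, in the anterior pieces (light) and posterior pieces (dark), with the standard error as a line and filled points for an adjusted p under 0.05. Aldoc, Ldhb and Pgm1 stand highest, at 2.65, 2.57 and 2.21 in the anterior pieces, and Slc16a1 is the only filled point below 0.

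These calls leaned on single libraries. The anterior count was 6, all higher, without mutant library 163, where 6.8% of all genes were called higher and 5.63% lower. It was 7 without wild-type library 153 (6.6% and 2.75% of all genes) and 9 without wild-type library 156 (7.08% and 4.04%). The posterior count was 7 without mutant library 159 (6.56% and 2.55%), 3 without wild-type library 153 (2.1% and 0.224%) and 5 without wild-type library 156 (2.88% and 0.895%), again all higher. The calls over all genes thus fell as well. Pfkfb3, Pdk1 and Pgm1 were called in both regions whichever 1 library was left out, and Aldoc, Ldhb and Pdk2 in the anterior pieces. Leaving out 1 library leaves its group with 1, which is then assumed to vary like the other groups. With all genes kept, however low, the counts were 7 (4.93% of all genes higher and 3.48% lower) and 6 (2.19% and 0.661%).

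Eno2, neuronal enolase, was under 1 TPM in every library and was not tested. Pfkfb2 and Pdk4 passed the filter on low values (at least 1 TPM in at least 2 libraries) only through mutant libraries, and neither was called. The other 34 members passed it in both genotypes.

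Summed over the 19 enzyme genes from hexokinase to lactate dehydrogenase, the level was 11498 and 14083 TPM in the mutant anterior libraries and 10286 and 10796 TPM in the wild type. The posterior sums were 12603 and 11398 TPM in the mutant and 8843 and 8588 TPM in the wild type. The groups did not overlap in either region, with ratios of 1.21 and 1.38. Without mutant library 163 the anterior ratio was 1.09. No test was made on such sums, since 2 libraries against 2 cannot give an exact permutation p below 1 in 3.

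The steps differed in size. The glycogen genes together had the largest ratio of mutant to wild type, 2.51 in the anterior and 2.43 in the posterior pieces, and Pgm1 carried it: without Pgm1 the other 3 glycogen genes had ratios of 1.24 and 1.33. Next were the enzymes that make and break fructose-2,6-bisphosphate (1.94 and 2.33), hexokinase (1.7 and 1.71), glucose-6-phosphate isomerase (1.68 and 1.77), and aldolase (1.46 and 1.69). Phosphofructokinase, which comes before aldolase, was at only 1.09 and 1.18. Glucose uptake was at 1.36 and 1.3, and the pyruvate dehydrogenase kinases were at 1.39 and 1.37. The steps from triose phosphate isomerase to lactate dehydrogenase had ratios between 1.07 and 1.27 in the anterior and between 1.25 and 1.39 in the posterior pieces. Among these, the posterior ratio of phosphoglycerate mutase, 1.36, rested on mutant library 159. Its sum was 159.8 TPM there and 90.2 TPM in mutant library 163, against 88.5 and 95.6 TPM in the wild type, so the groups overlapped. Pgam1 alone had a posterior ratio of 1.06. Lactate export was at 1.07 and 1, and pyruvate dehydrogenase, at 0.835 and 0.951, was the one step with both mutant libraries below both wild-type libraries.

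**Figure D2:**
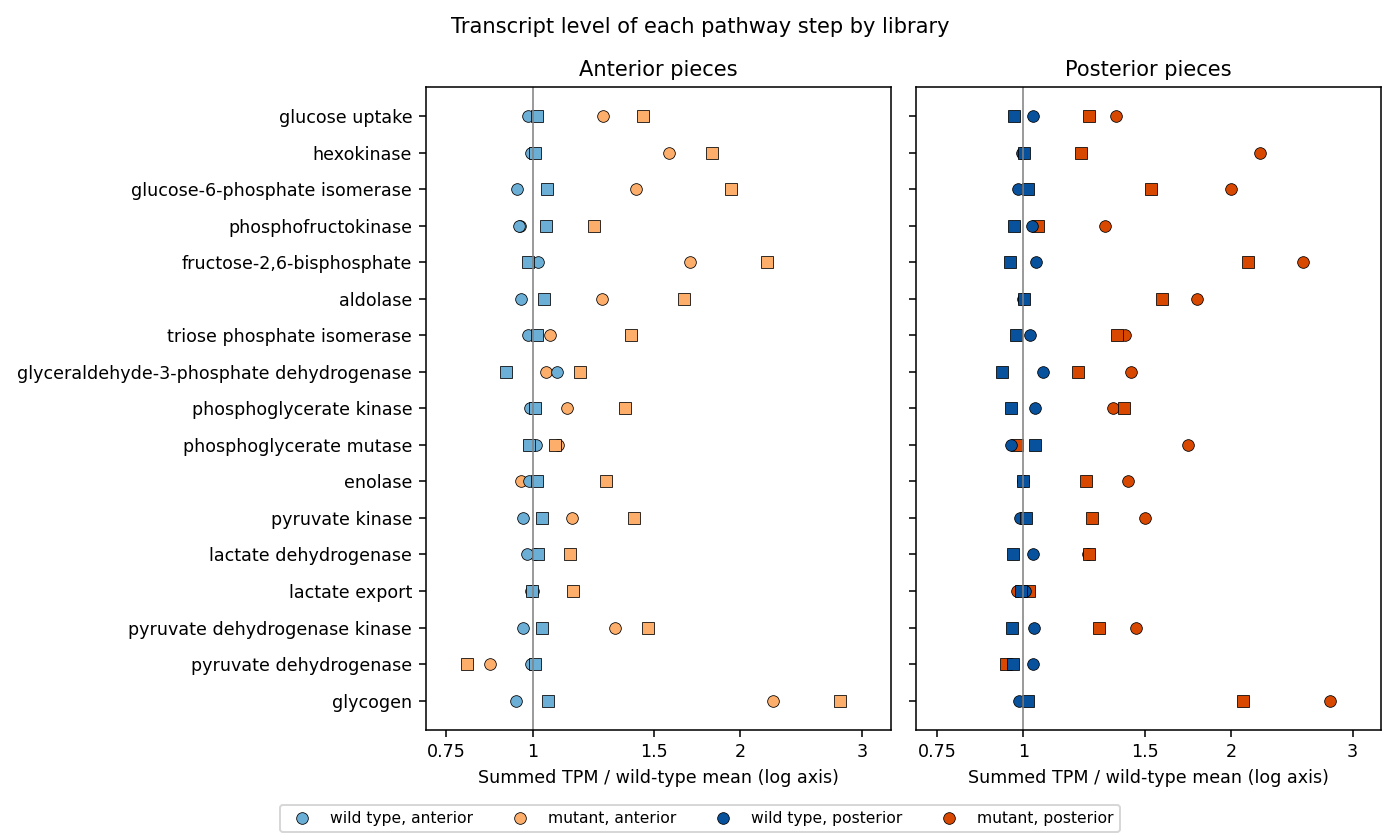
Summed TPM of the genes of each step in every library, divided by the wild-type mean of the same region (log axis), with circles for libraries 159 and 153 and squares for 163 and 156. Glycogen, fructose-2,6-bisphosphate, hexokinase and glucose-6-phosphate isomerase lie to the right of the wild type in all mutant libraries. Phosphofructokinase, glyceraldehyde-3-phosphate dehydrogenase, enolase, lactate dehydrogenase and lactate export overlap in the anterior pieces. Phosphoglycerate mutase and lactate export overlap in the posterior pieces.

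The sequence before the start of these genes was searched for ACGTG and GCGTG, the core letters of the hypoxia response element, and for TCAAGGTCA, the extended half-site known for Gcnf, on both strands. The promoters are the 250 bases before each RefSeq start (GRCm38.p6), and 36 of the 37 members matched. Slc2a3 did not. The printed windows, cut back where GENCODE M21 places an exon of the same gene, are those of the 4 members with the smallest anterior p, Pgm1 (chr4:99929201-99929413, plus strand), Ldhb (chr6:142507958-142508207, minus), Aldoc (chr11:78322823-78322967, plus) and Pdk1 (chr2:71872974-71873223, plus), and of 2 abundant or uncalled enzymes, Ldha (chr7:46845554-46845803, plus) and Pgam1 (chr19:41911621-41911870, plus). They were chosen after the values were seen, and capitals mark ACGTG or GCGTG on either strand.
Pgm1: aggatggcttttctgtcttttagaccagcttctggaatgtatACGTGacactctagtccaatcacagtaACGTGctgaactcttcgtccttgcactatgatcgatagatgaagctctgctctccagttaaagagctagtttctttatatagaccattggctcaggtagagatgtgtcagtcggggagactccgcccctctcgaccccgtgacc
Ldhb: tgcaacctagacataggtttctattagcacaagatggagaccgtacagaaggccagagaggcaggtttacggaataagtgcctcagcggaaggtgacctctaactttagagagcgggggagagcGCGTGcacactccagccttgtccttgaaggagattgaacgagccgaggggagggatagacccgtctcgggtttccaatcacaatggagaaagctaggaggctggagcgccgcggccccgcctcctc
Aldoc: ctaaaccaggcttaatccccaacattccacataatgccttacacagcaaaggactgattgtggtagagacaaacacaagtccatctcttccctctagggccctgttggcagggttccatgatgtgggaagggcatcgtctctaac
Pdk1: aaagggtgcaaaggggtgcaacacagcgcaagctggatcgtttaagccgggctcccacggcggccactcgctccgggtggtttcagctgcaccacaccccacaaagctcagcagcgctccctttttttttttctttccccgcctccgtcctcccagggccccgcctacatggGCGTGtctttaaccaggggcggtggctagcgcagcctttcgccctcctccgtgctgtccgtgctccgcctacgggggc
Ldha: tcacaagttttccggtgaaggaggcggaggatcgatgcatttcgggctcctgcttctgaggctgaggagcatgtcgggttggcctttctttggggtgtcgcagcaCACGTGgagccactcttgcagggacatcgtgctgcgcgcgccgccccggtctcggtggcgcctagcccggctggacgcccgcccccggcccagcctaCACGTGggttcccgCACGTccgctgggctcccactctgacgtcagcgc
Pgam1: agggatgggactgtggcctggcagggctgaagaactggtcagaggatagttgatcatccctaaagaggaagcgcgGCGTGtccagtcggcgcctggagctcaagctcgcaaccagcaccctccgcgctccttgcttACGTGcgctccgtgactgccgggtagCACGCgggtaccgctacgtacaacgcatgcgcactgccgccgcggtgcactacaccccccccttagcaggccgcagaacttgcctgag
Pgm1 has 2 stretches in capitals, Ldhb and Pdk1 have 1 each, and the printed bases of Aldoc have none. Ldha has 3, of which 2 are the palindrome CACGTG, where matches on both strands overlap, and Pgam1 has 3. At least 1 of these motifs was present for 10 of the 12 members called higher in both regions (83.3%) and for 20 of the other 24 (83.3%), against 41.5% of the 27025 genes in the table. These counts use the whole windows of every start of a gene, not cut back at exons, and the matches counted for Aldoc lie outside the bases printed. The median GC content was 60.2% in the promoters of the 12, 58.8% in those of the other members and 52.4% in all promoters. The half-site TCAAGGTCA was in 0 of the 18 and 0 of the 37 promoters of these groups and in 0.387% of all 32851. These matches are a description of the letters, not of binding.

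Glucose enters through facilitative transporters, of which Slc2a1 (GLUT1) is the general one and Slc2a3 (GLUT3) has a higher affinity and is known in neurons and early embryos. Slc2a1 was at 1105 and 1289 TPM in the mutant anterior libraries and at 905 and 937 TPM in the wild type. In the posterior pieces it was at 1644 and 1521 TPM in the mutant and 955 and 945 TPM in the wild type. Every mutant library lay above every wild-type library, and Slc2a1 rose in the mutant by 0.37 (standard error 0.11, adjusted p = 0.0364) in the anterior and by 0.73 (standard error 0.11, adjusted p = 0.00429) in the posterior pieces. The anterior call was lost without any 1 of mutant anterior 163 or the 4 wild-type libraries (adjusted p 0.0582 to 0.204), and the posterior call without wild-type posterior 153 (0.0518).

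Slc2a3 was at 1016 and 1135 TPM in the mutant anterior libraries, above the 745 and 764 TPM of the wild type. It rose there by 0.51 (standard error 0.11, adjusted p = 0.0127). The posterior mutant, at 834 and 737 TPM, overlapped the wild type, at 918 and 814 TPM, with a difference of -0.14 (adjusted p = 0.46). The anterior call was lost without mutant anterior 163 or either wild-type anterior library (adjusted p 0.0699 to 0.093).

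Hexokinases phosphorylate glucose and so trap it in the cell. Hk2, the inducible and more abundant of the pair, was at 153 and 175 TPM in the mutant anterior libraries and 100.1 and 99.9 TPM in the wild type, a rise of 0.70 (standard error 0.21, adjusted p = 0.0386). Hk1, the widely expressed form, was at 27.5 and 33.8 against 13.7 and 15.3 TPM and rose by 1.02 (standard error 0.32, adjusted p = 0.0477). In the posterior pieces neither passed: Hk2 was at 187 and 109 against 88.9 and 88.2 TPM, and Hk1 at 45.6 and 19 against 16.4 and 17.7 TPM. All 4 of these comparisons kept the mutant libraries above the wild type, but mutant posterior 159 was far above mutant posterior 163 for each gene. The adjusted p was 0.0659 for Hk2 (0.0409 with a filter at 5 TPM) and 0.162 for Hk1. Both anterior calls were lost without any 1 of the 2 mutant anterior or the 4 wild-type libraries (adjusted p 0.0721 to 0.174 for Hk2 and 0.087 to 0.201 for Hk1), and with median-of-ratios scaling (0.0547 for Hk2 and 0.0676 for Hk1). That of Hk1 was also lost with the library number as a block (0.0543), with quantile normalization (0.0939) and when rescaled without globin, mitochondrial and Mir6236 transcripts (0.0515).

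Gpi1, glucose-6-phosphate isomerase, makes fructose-6-phosphate for the next enzyme. It was at 389 and 534 TPM in the mutant anterior libraries against 262 and 289 TPM, and at 475 and 365 against 234 and 242 TPM in the posterior pieces. With no overlap in either region, Gpi1 rose by 0.73 (standard error 0.17, adjusted p = 0.0154) and 0.81 (standard error 0.17, adjusted p = 0.0193). The anterior call was lost without mutant 163 or wild-type 153 of that region (0.0895 and 0.0917), and the posterior call without mutant 159 or either wild-type library of that region (0.0592 to 0.137).

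Phosphofructokinase, the committed step, was carried mainly by Pfkl, the liver-type subunit, which held 85.4% to 89% of the summed level of its 3 genes. Pfkl was at 504 and 654 TPM in the mutant anterior libraries and 513 and 572 TPM in the wild type, and its groups overlapped (difference 0.084, adjusted p = 0.73). Its posterior difference was 0.22 (adjusted p = 0.377). Pfkm, the muscle-type subunit, ranged from 57.4 to 87 TPM and was not called in either region, with differences of 0.26 and 0.20. Pfkp, the platelet-type subunit, was called in both regions at a low level. It was at 9.73 and 13.8 against 4.36 and 3.88 TPM in the anterior and 13.8 and 7.74 against 4.81 and 4.23 TPM in the posterior pieces. Mutant libraries of Pfkp lay above the wild type throughout, with rises of 1.30 (standard error 0.25, adjusted p = 0.00716) and 1.05 (standard error 0.25, adjusted p = 0.0316). Without mutant anterior 163 the anterior call was lost (0.052), and without mutant posterior 159 or either wild-type posterior library the posterior one (0.0902 to 0.148), as also with quantile normalization (0.0645). The libraries do not mark strand, and Pfkp shares 748 exon bases with Pitrm1 on the other strand, which was at 134 to 205 TPM, so reads of the 2 genes cannot be told apart there.

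The bifunctional enzymes encoded by Pfkfb1 to Pfkfb4 make and break fructose-2,6-bisphosphate, the activator of phosphofructokinase. Pfkfb3 (chr2:11471433-11554077, minus strand), the isozyme with the strongest kinase activity, was the most abundant, at 56.9 and 82.9 TPM in the mutant anterior libraries against 33.6 and 30.5 TPM in the wild type. Posterior levels were 91.6 and 73.4 against 27.4 and 27.1 TPM. Those posterior mutant libraries had a mean of 82.5 ± 12.9 TPM (SD, n = 2), 3.03 times the wild-type mean of 27.2 ± 0.203 TPM. Pfkfb3 rose by 1.08 (standard error 0.17, adjusted p = 0.00363) and 1.56 (standard error 0.17, adjusted p = 0.00138), and no single library decided either call.

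Pfkfb4 was at 13.7 and 11.2 against 7.57 and 8.8 TPM in the anterior pieces and rose there by 0.55 (standard error 0.16, adjusted p = 0.0402). That call was lost without any 1 of the 4 anterior libraries (0.0575 to 0.217) and with quantile normalization (0.152). The posterior difference of Pfkfb4 was 0.28 (adjusted p = 0.293). Pfkfb1, an X-linked gene, stayed between 7.01 and 9.8 TPM with differences of 0.32 and 0.096. Pfkfb2 was at 1.31 to 1.65 TPM in the mutant and 0.617 to 0.815 TPM in the wild type. It passed the filter on low values only through mutant libraries, so its lack of overlap between genotypes is not evidence of a difference. With the same limit, the adjusted p of Pfkfb2 was 0.055 in the anterior (0.0385 with median-of-ratios scaling) and 0.146 in the posterior pieces.

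Aldolase cleaves fructose-1,6-bisphosphate into triose phosphates. Aldoa, the main form, was at 1953 and 2566 TPM in the mutant anterior libraries against 1508 and 1629.6 TPM, and at 2299 and 2055 against 1294 and 1299 TPM in the posterior pieces. Its genotypes did not overlap, and it rose by 0.51 (standard error 0.14, adjusted p = 0.0304) and 0.75 (standard error 0.14, adjusted p = 0.0131). The anterior call was lost without mutant anterior 163 or any 1 of the 4 wild-type libraries (0.0579 to 0.17), and the posterior call without either wild-type posterior library (0.0819 and 0.107).

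Aldoc (chr11:78322968-78327781, plus strand), the brain-type aldolase, had the largest anterior effect of all members. It was at 28.1 and 37.1 TPM in the mutant anterior libraries and 4.54 and 4.06 TPM in the wild type. Posterior Aldoc was at 33.9 and 22.8 against 12.2 and 10.7 TPM. The anterior wild type was thus the low group: the mean was 4.3 ± 0.339 TPM there (SD, n = 2), 11.4 ± 1.09 TPM in the posterior wild type, and 32.6 ± 6.4 and 28.3 ± 7.85 TPM in the mutant. Aldoc rose by 2.65 (standard error 0.20, adjusted p = 0.000119) in the anterior and 1.21 (standard error 0.20, adjusted p = 0.0069) in the posterior pieces, where the call was lost without either wild-type library (0.0604 and 0.0674).

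The steps from triose phosphates to pyruvate are run by abundant enzymes. Tpi1, triose phosphate isomerase, was at 1194 and 1563 against 1108 and 1145 TPM in the anterior and 1366 and 1331 against 997 and 951 TPM in the posterior pieces. The genotypes did not overlap, but the differences of 0.28 and 0.47 had adjusted p of 0.159 and 0.0523. Tpi1 was called in both regions with quantile normalization (0.0133 and 0.0413). In the posterior pieces it was also called with a filter at 5 TPM (0.0361) and when rescaled without globin, mitochondrial and Mir6236 transcripts (0.0322). Gapdh, glyceraldehyde-3-phosphate dehydrogenase, was listed at only 79.6 to 131 TPM, with differences of 0.15 and 0.39 that did not pass (adjusted p 0.445 and 0.0909). Copies of Gapdh named in the annotation reached 8.91 TPM, and how reads shared between near-identical copies were assigned is not stated, so its level is uncertain.

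Pgk1, phosphoglycerate kinase, makes the first ATP of the pathway and is X-linked. It was at 188 and 195 TPM in the mutant posterior libraries and 145 and 134 TPM in the wild type, and rose by 0.46 (standard error 0.11, adjusted p = 0.0309). In the anterior pieces it was at 206 and 249 against 182 and 185 TPM, a difference of 0.30 (adjusted p = 0.0754) that passed with both libraries numbered 159 left out (0.0212), with median-of-ratios scaling (0.0348) and with quantile normalization (0.00954). The posterior call was lost without any 1 library other than the mutant anterior pair (0.0553 to 0.136). Mutant libraries lay above the wild type in both regions.

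Pgam1, phosphoglycerate mutase, was not called in either region. It was at 89.9 and 94.3 against 89.7 and 89.2 TPM in the anterior and 80.9 and 78.7 against 78.1 and 73 TPM in the posterior pieces, with differences of 0.041 and 0.079 (standard error 0.086 for each). Eno1, the main enolase, was at 465 and 626 against 463 and 494 TPM in the anterior pieces, where the groups overlapped. Posterior Eno1 was at 598 and 513 against 395 and 403 TPM, a difference of 0.47 with an adjusted p of 0.0677 (0.0479 with a filter at 5 TPM). Eno3, the muscle-type enolase, ranged from 122 to 189.5 TPM and was not called in either region (differences 0.056 and 0.20). Eno2 was at 0.962 and 0.977 against 0.725 and 0.909 TPM in the anterior and 0.636 and 0.73 against 0.171 and 0.197 TPM in the posterior pieces.

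Pgam2, the muscle-type phosphoglycerate mutase, varied more than any other member between libraries of a group. It was at 78.8 TPM in mutant posterior library 159 and 11.4 TPM in 163, and at 10.4 and 22.7 TPM in the posterior wild type. In the anterior pieces it was at 11.5 and 6 against 4.57 and 2.86 TPM. The difference of 0.94 (standard error 0.74, adjusted p = 0.452) in the posterior pieces was -0.40 without library 159. Summed over 12 markers of heart and striated muscle, the same libraries held 3565 and 430.3 TPM (mutant posterior), 506 and 1561 TPM (wild-type posterior), 443 and 141 TPM (mutant anterior) and 168 and 44.3 TPM (wild-type anterior). Of these markers 9 were tested and 0 were called by limma for either genotype effect (1, Myf5, had an unadjusted p under 0.05, in the posterior pieces), and none was at 0 in all libraries. The part of muscle tissue in the Pgam2 values was not tested. In bulk pieces, fewer cells of a type and less RNA per cell cannot be told apart.

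**Figure D3:**
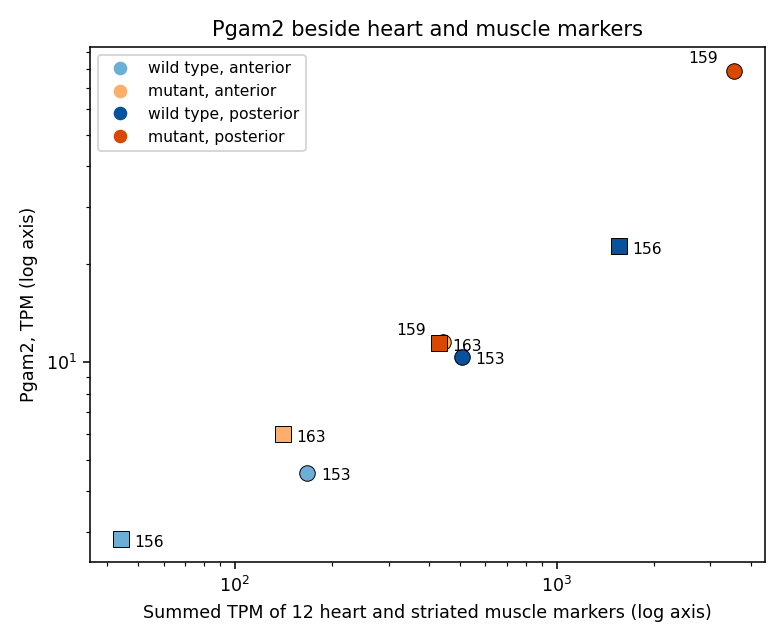
Pgam2 (TPM) against the summed TPM of 12 heart and striated muscle markers in each of the 8 libraries, both on log axes, labelled by library number. Mutant posterior library 159 is highest on both axes (78.8 and 3565 TPM) and wild-type anterior library 156 lowest (2.86 and 44.3 TPM).

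Pkm, pyruvate kinase, makes pyruvate and a further ATP. It was at 2330.2 and 2863 TPM in the mutant anterior libraries against 1980.0 and 2109 TPM, and at 2414 and 2023 against 1592 and 1624 TPM in the posterior pieces. All mutant libraries were above the wild type of their region, but the differences of 0.34 and 0.46 did not pass (adjusted p 0.106 and 0.063). The posterior difference passed with a filter at 5 TPM (0.0446) and when rescaled without globin, mitochondrial and Mir6236 transcripts (0.0491). With both libraries numbered 159 left out the anterior difference of Pkm passed (0.0159), as it did with quantile normalization (0.0278).

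The lactate dehydrogenase genes parted. Ldha, the subunit that favours lactate formation, was the most abundant member, at 3404 and 3894 TPM in the mutant anterior libraries and 3677 and 3761 TPM in the wild type. Its anterior groups overlapped (difference -0.031, standard error 0.12), and its sign turned when both libraries numbered 159 were left out. Posterior Ldha was at 3525 and 3535 against 3140.3 and 2898 TPM, a difference of 0.23 (adjusted p = 0.244).

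Ldhb (chr6:142490249-142507957, minus strand), the subunit typical of heart, was at 417 and 401 TPM in the mutant anterior libraries and at only 45.5 and 101 TPM in the wild type. The posterior libraries had 319 and 319 against 54.5 and 90.1 TPM. The lowest mutant library was thus more than 3 times the highest wild-type library, and the wild-type libraries of a region differed more between themselves than the mutant ones. Ldhb rose by 2.57 (standard error 0.33, adjusted p = 0.00133) in the anterior and 2.17 (standard error 0.33, adjusted p = 0.00528) in the posterior pieces, where the call was lost without wild-type library 153 (0.0757).

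Lactate leaves or enters cells through monocarboxylate transporters. Slc16a3 (MCT4), known as the exporter of glycolytic cells, was at 313 and 405 against 221 and 253 TPM in the anterior and 384 and 337 against 220.1 and 241 TPM in the posterior pieces. With all mutant libraries above the wild type, it rose by 0.59 (standard error 0.14, adjusted p = 0.0175) and 0.64 (standard error 0.14, adjusted p = 0.0227). The anterior call was lost without mutant anterior 163 or wild-type anterior 153 (0.104 and 0.125), and the posterior call without mutant posterior 159 or either wild-type posterior library (0.0691 to 0.157).

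Slc16a1 (MCT1), the widespread transporter that also takes lactate up, went the other way. It was at 208 and 194 TPM in the mutant anterior libraries against 303 and 269 TPM, and at 269.6 and 345 against 452 and 423 TPM in the posterior pieces. No libraries overlapped, with differences of -0.51 (standard error 0.13, adjusted p = 0.0217) and -0.52 (standard error 0.13, adjusted p = 0.0356). These falls were lost without any 1 of the 4 anterior libraries (0.0548 to 0.154) and without mutant posterior 159 or any 1 of the 4 wild-type libraries (0.0511 to 0.192).

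**Figure D4:**
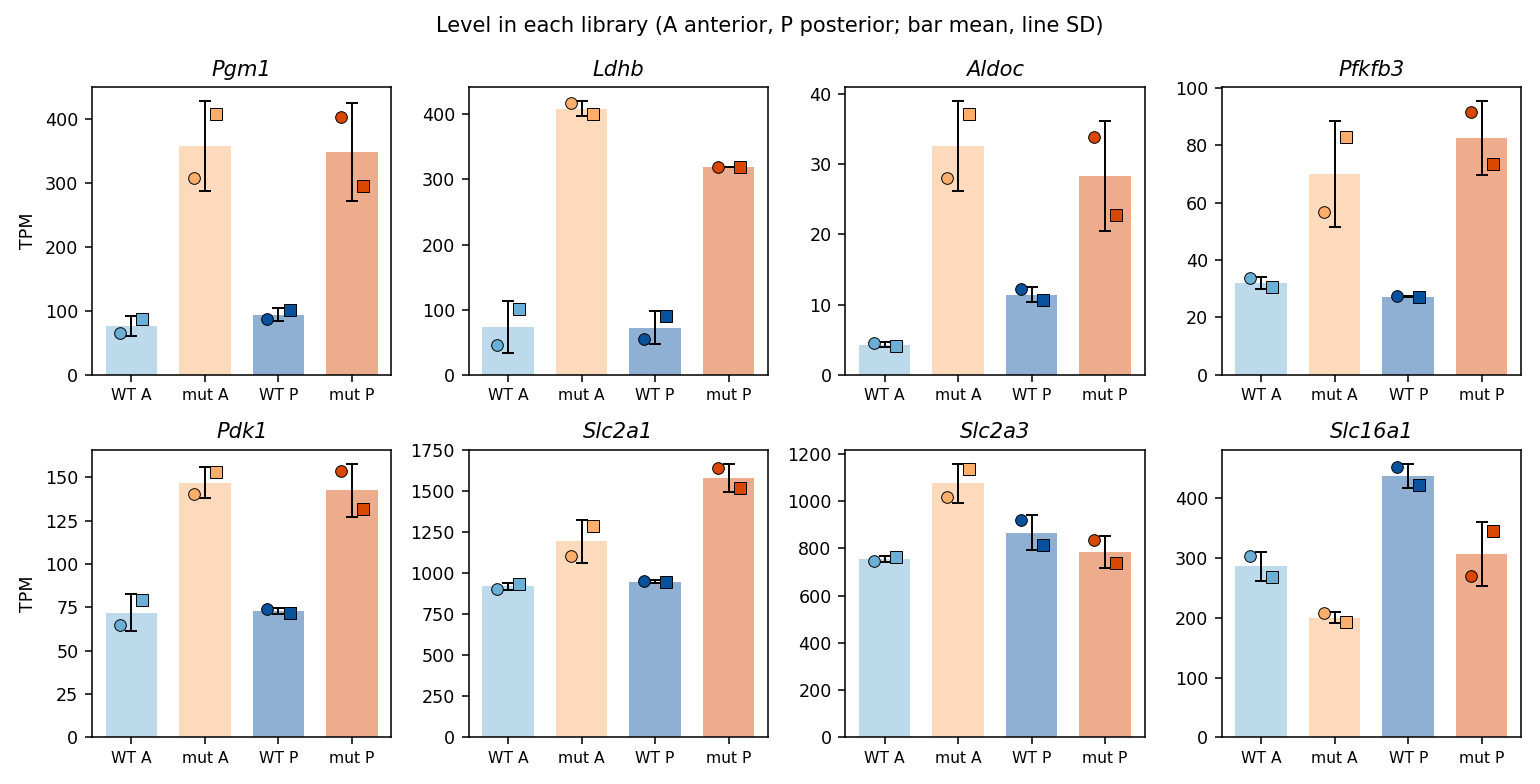
TPM of 8 members in each library (circles 159 and 153, squares 163 and 156) with the group mean as a bar and the SD as a line; A is anterior, P posterior, mut mutant. Pgm1, Ldhb, Aldoc, Pfkfb3 and Pdk1 have all mutant libraries above all wild-type libraries, Slc16a1 is lower in the mutant of each region, and Slc2a3 is separated only in the anterior pieces.

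Pyruvate dehydrogenase feeds pyruvate into the mitochondrial citric acid cycle, and the kinases Pdk1 to Pdk4 switch it off by phosphorylation. Pdk1 (chr2:71873224-71903858, plus strand) was at 141 and 153 TPM in the mutant anterior libraries against 64.7 and 79.4 TPM, and at 153 and 132 against 74 and 71.6 TPM in the posterior pieces. The libraries of each genotype were close, and Pdk1 rose by 1.02 (standard error 0.12, adjusted p = 0.000898) and 0.95 (standard error 0.12, adjusted p = 0.00242), whichever 1 library was left out. Pdk2, at a lower level, was at 10.8 and 13.6 against 6.2 and 5.58 TPM and at 11.1 and 8.58 against 5.86 and 6 TPM. The genotypes of Pdk2 did not overlap, and it rose by 0.93 (standard error 0.16, adjusted p = 0.00471) and 0.64 (standard error 0.16, adjusted p = 0.0384). The posterior call was lost without mutant posterior 159 or any 1 of the 4 wild-type libraries (0.0557 to 0.177), and with quantile normalization (0.0786).

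Pdk3, which is X-linked, was the other abundant kinase and lay at 95.5 to 125 TPM, with differences of -0.11 and -0.005. Pdk4, at 0.75 to 2.18 TPM in the mutant and 0.357 to 0.648 TPM in the wild type, was not called (adjusted p 0.0866 and 0.201). Like Pfkfb2 it passed the filter only through mutant libraries, so its lack of overlap between genotypes is not evidence of a difference. Pdha1, the X-linked catalytic subunit, was at 233 and 211 TPM in the mutant anterior libraries, below the 264 and 276 TPM of the wild type. Its difference of -0.28 missed the threshold (adjusted p = 0.0558) and passed with both libraries numbered 159 left out (0.0452) and with median-of-ratios scaling (0.0462). Its posterior difference was -0.095 (adjusted p = 0.546). Pdhb, the second subunit of the same enzyme, ranged from 62.2 to 74.5 TPM and was not called.

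Phosphoglucomutase joins glycolysis to glycogen by exchanging glucose-6-phosphate and glucose-1-phosphate. Pgm1 (chr4:99929414-99987294, plus strand, GENCODE M21 on mm10) was at 307 and 407 TPM in the mutant anterior libraries against 65.7 and 87.7 TPM in the wild type. Its posterior levels were 403 and 295 against 86.6 and 101 TPM. The means were 357 ± 70.6 and 349 ± 76.4 TPM in the mutant (SD, n = 2), 4.66 and 3.71 times those of the wild type. Pgm1 rose by 2.21 (standard error 0.20, adjusted p = 0.000284) and 1.87 (standard error 0.20, adjusted p = 0.00115), and no single library decided the calls. It shares 398 exon bases with Itgb3bp on the other strand, which was at only 14.2 to 21.2 TPM. Pgm2, its relative, ranged from 41.5 to 57.7 TPM and was not called (differences -0.15 and -0.012).

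Gys1, glycogen synthase, was at 78.7 and 103 against 53.5 and 54.9 TPM in the anterior and 101 and 64.4 against 45.4 and 46.5 TPM in the posterior pieces. Without overlap in either region, it rose by 0.72 (standard error 0.20, adjusted p = 0.0298) and 0.80 (standard error 0.20, adjusted p = 0.0356). The anterior call was lost without mutant anterior 163 or any 1 of the 4 wild-type libraries (0.0587 to 0.174), and the posterior call without mutant posterior 159 or either wild-type posterior library (0.0865 to 0.184), and with median-of-ratios scaling (0.0556) or quantile normalization (0.052). Gys1 shares 310 exon bases with Ruvbl2 on the other strand, at 311 to 435 TPM. Gbe1, the branching enzyme, ranged from 17 to 19.9 TPM over all 8 libraries and was not called.

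Within a step the mix of isozymes differed between genotypes. Ldhb made up 8.27% to 10.9% of the lactate dehydrogenase transcripts (per length) in the mutant libraries and 1.22% to 3.02% in the wild type. Pdk1 made up 51.6% to 56.6% of the kinase transcripts in the mutant and 35.5% to 40.7% in the wild type, while Pdk3 went from 56.2% to 60.8% in the wild type to 38.5% to 44.7% in the mutant. For the lactate transporters, Slc16a3 held 49.4% to 67.7% in the mutant and 32.7% to 48.4% in the wild type. These shares did not overlap between genotypes, in either region or over both.

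The same held for the shares of a further pair of genes. Pgm1 took 66.5% to 71.2% of the sum of the 4 glycogen genes in the mutant and 33.5% to 49.1% in the wild type. Those genes encode different enzymes, so this is not an isozyme share. Pfkfb3 took 70.2% to 82.1% of its step in the mutant against 59.7% to 68.9% in the wild type. By contrast Hk2 stayed at 80.4% to 88% of hexokinase and Aldoa at 98.5% to 99.8% of aldolase in all 8 libraries. Slc2a3 held 32.6% and 33.7% of the uptake transcripts in the mutant posterior libraries and 44.9% to 49% in the other 6. Aldoc held 0.249% and 0.3% of aldolase in the wild-type anterior libraries and 0.814% to 1.45% in the other 6. No test was made on the shares.

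**Figure D5:**
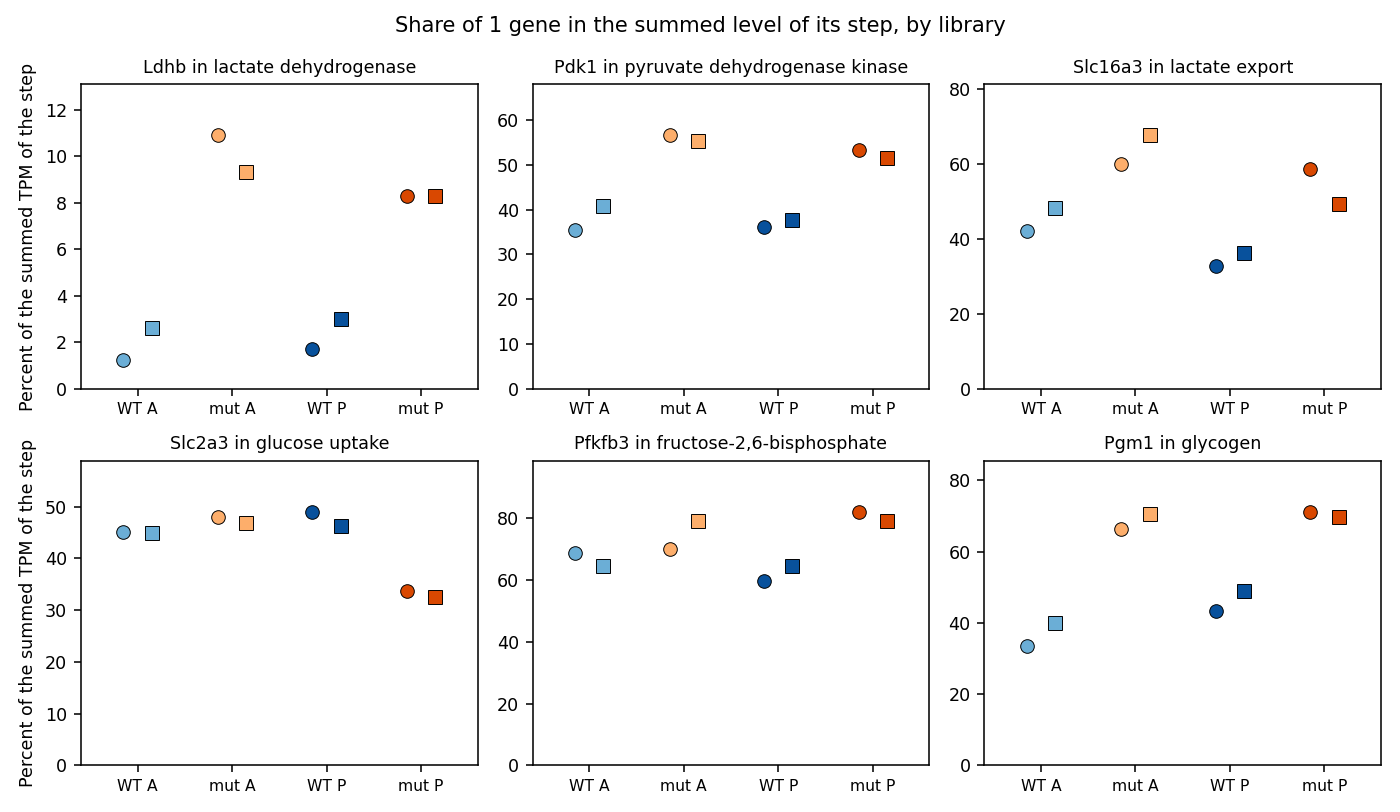
Share of 1 gene in the summed TPM of its step, in percent, for each library of the 4 groups (circles 159 and 153, squares 163 and 156). Ldhb, Pdk1, Slc16a3, Pfkfb3 and Pgm1 have higher shares in all mutant libraries, and Slc2a3 is low only in the mutant posterior pieces, at 32.6% and 33.7%.

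Whether the genotype effect differed between the regions was tested as the anterior minus the posterior effect, for which 1.01% of all genes tested were called. Of the members 0 of 36 were called by limma, and 3 had an unadjusted p under 0.05. Of all 16699 genes tested, 2109 had such a p, which is a larger share. Aldoc came nearest, with a difference of 1.44 (standard error 0.28, adjusted p = 0.0607). It was called without mutant posterior 159 (0.0193), with both libraries numbered 159 left out (0.0154) and with a filter at 5 TPM (0.0259). Slc2a3 had a difference of 0.65 (standard error 0.16, adjusted p = 0.116) and was called with quantile normalization (0.0344). Slc2a1 had a difference of -0.36 (standard error 0.15, adjusted p = 0.374). So Slc2a3, Hk1, Hk2 and Pfkfb4, called only in the anterior pieces, and Pgk1, called only in the posterior pieces, were not shown to differ between the regions.

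From anterior to posterior, members were called at shares near those of all genes. In the wild type 2 of 36 were higher and 2 lower (5.56% each), beside 7.86% and 6.65% of all genes tested. Aldoc rose by 1.23 (standard error 0.20, adjusted p = 0.00365) and Slc16a1 by 0.61 (standard error 0.13, adjusted p = 0.0131). Pgk1, at -0.39 (adjusted p = 0.0428), and Pdha1, at -0.57 (adjusted p = 0.0036), fell. Of these, Aldoc was called whichever 1 library was left out. Slc16a1 was lost without wild-type anterior 156 or either wild-type posterior library (0.0668 to 0.115), Pgk1 without any 1 of the 4 wild-type libraries (0.0908 to 0.222) and with quantile normalization (0.0755), and Pdha1 without wild-type anterior 156 (0.0503).

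In the mutant 2 members were higher and 2 lower in the posterior pieces (5.56% each), beside 8.01% and 8.1% of all genes tested. Slc2a1 rose by 0.41 (standard error 0.11, adjusted p = 0.0341) and Slc16a1 by 0.60 (standard error 0.13, adjusted p = 0.0127), while Slc2a3, at -0.45 (adjusted p = 0.0253), and Pdha1, at -0.38 (adjusted p = 0.0219), fell. Aldoc, with a difference of -0.21 (adjusted p = 0.559), was not called there. None of these 4 calls was kept when each library was left out in turn. Slc2a1 was lost without any library other than mutant anterior 163 (0.0504 to 0.179), and with the library number as a block (0.0585). Slc2a3 was lost without mutant 163 of either region or a wild-type anterior library (0.0528 to 0.139), Pdha1 without mutant anterior 159, mutant posterior 163 or a wild-type anterior library (0.0553 to 0.133), and Slc16a1 without mutant 163 of either region (0.0521 and 0.0777).

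Other genes of the pathway were taken from lists. Their counts stand beside 13.3% of all genes called higher and 10.2% lower in the anterior pieces. In the posterior pieces these shares were 8.56% and 2.93%. Of 18 further isozymes, transporters and regulators of glycolysis that were tested, 5 rose (Slc2a4, Slc2a6, Slc2a8, Slc2a12 and Pklr) and 1 fell (Tigar) in the anterior pieces. In the posterior pieces 1 was called higher (Hk3) and 2 fell (Tigar and Slc2a2). Hk3 was at 2.06 and 1.87 TPM in the mutant posterior libraries and at most 0.519 TPM in the others. It passed the filter on low values only through those mutant libraries, so its call is not evidence of a difference. Slc2a4, the insulin-responsive transporter, rose by 0.83 (adjusted p = 0.00898) in the anterior pieces, and Tigar, a fructose-2,6-bisphosphatase that restrains glycolysis, had differences of -0.66 and -0.53 (adjusted p 0.00651 and 0.0285). Slc2a2, the transporter of liver and visceral endoderm, was at 26.4 and 26.8 TPM in the posterior wild type and 0.694 and 8.41 TPM in the mutant. A list of 11 visceral endoderm markers summed to 2160 to 2595 TPM in the posterior wild type and 238 to 1146 TPM in the posterior mutant, with 4 of 11 called lower (Fgg, Fga, Trf and Apoa4), and to 18.3 to 26.6 TPM in the mutant and 24.9 to 158 TPM in the wild type of the anterior pieces, with 0 called by limma and 1 at an unadjusted p under 0.05. None of the 11 was at 0 in all libraries, and their part in the Slc2a2 values was not tested.

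Of 8 tested genes for pyruvate entry into mitochondria, 2 rose (Pdp1 and Pdp2) and 1 fell (Dld) in the anterior pieces and 2 rose (Pdp2 and Pcx) in the posterior pieces. Pdp2, the phosphatase that reactivates pyruvate dehydrogenase and so opposes the Pdk enzymes, rose in both, by 1.11 and 0.66 (adjusted p 0.00253 and 0.0372). Of 16 citric acid cycle genes, 5 fell in the anterior pieces (Cs, Ogdh, Dlst, Mdh2 and Fh1) and 0 were called by limma in the posterior pieces, where 4 had an unadjusted p under 0.05. Cs, citrate synthase, was at 163 and 163 TPM in the mutant anterior libraries and 235 and 235 TPM in the wild type, a difference of -0.53 (adjusted p = 0.00329). Of 7 pentose phosphate genes, 1 (14.3%, beside 10.2% of all genes) fell in the anterior pieces, Pgd, by 0.33 on the log2 scale (adjusted p = 0.0279). In the posterior pieces 0 were called by limma, and 3 had an unadjusted p under 0.05.

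Of 16 other glycogen genes, 6 rose in the anterior and 3 (Ppp1r3c, Stbd1 and Pygl) in the posterior pieces, and limma called 0 lower (1 in the posterior pieces had an unadjusted p under 0.05). Ppp1r3c, a subunit that targets phosphatase to glycogen and promotes its synthesis, was at 22.5 and 30.1 TPM in the mutant anterior libraries against 3.6 and 3.1 TPM in the wild type, a rise of 2.64 (standard error 0.22, adjusted p = 0.000174). It rose by 2.03 in the posterior pieces (adjusted p = 0.00113). Pygl, which breaks glycogen down, also rose, by 1.29 and 0.89 (adjusted p 0.000942 and 0.0095), so genes of synthesis and of breakdown were both higher.

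A list of 12 genes held hypoxia-inducible factors and their regulators, and also Myc and Mycn, which are neither. Of these genes, 5 rose (Egln1, Egln3, Hif3a, Mycn and Epas1) and 3 fell (Myc, Hif1a and Hif1an) in the anterior pieces. In the posterior pieces 4 of them rose (Egln1, Egln3, Hif3a and Mycn). Egln3, an oxygen-sensing hydroxylase and itself a target of the hypoxia-inducible factors, rose by 1.85 and 1.97 (adjusted p 0.000448 and 0.000715). Of 20 other known hypoxia targets, 15 rose in each region and 1, Car12, fell in the anterior pieces. Ddit4, an inhibitor of growth signalling, rose by 3.80 and 3.38 (adjusted p 5.76e-05 and 0.000185). Earlier results of these data were known when the lists were made, so their counts are not independent evidence. Slc2a8, Slc2a12, Fh1, Mycn, Epas1, Hif1a, Hif1an and Car12 are named after their values were seen.

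Blood cell transcripts were also higher in the mutant. Of 11 tested erythroid markers 8 were called higher in the anterior and 6 in the posterior pieces, beside 13.3% and 8.56% of all genes tested. Their sum was 44495 TPM in mutant library 159 and 25962 TPM in 163 of the anterior pieces, against 4306 and 10095 TPM in the wild type. The posterior sums were 44737 and 22577 TPM against 6451 and 7748 TPM. None of the 11 was at 0 in all libraries. Within the mutant anterior pieces Pgm1, Aldoc, Pfkfb3 and Pdk1 were higher in library 163, where the erythroid sum was lower, and in the posterior pieces they were higher in 159, where it was higher. Ldhb was at like levels in the mutant libraries of a region. In the wild type the erythroid sum was higher in library 156 of both regions, where Ldhb and Pgm1 were higher and Aldoc and Pfkfb3 lower than in 153, while Pdk1 was higher in the anterior and lower in the posterior piece. With the values rescaled without globin, mitochondrial and Mir6236 transcripts, 18 members were called in the anterior and 16 in the posterior pieces, against 17 and 14. The calls over all genes rose as well, from 3937 to 4266 and from 1919 to 2246. Of all genes, 16% were then called higher and 9.59% lower in the anterior, and 10.2% and 3.26% in the posterior pieces. The part of blood cells in the members' values was not tested.

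Markers of neurons moved as well: 9 of 10 were called higher in the anterior and 7 in the posterior pieces, beside 13.3% and 8.56% of all genes tested. In the posterior pieces 2 of the 10 were lower at an unadjusted p under 0.05 (limma). The sums were 466 to 649 TPM against 168 to 170.2 TPM in the anterior and 127 to 132 TPM against 62.2 to 67.8 TPM in the posterior pieces. No neuron marker was at 0 in all libraries. Of 8 endothelial markers 2 were called higher in each region (Cldn5 and Pecam1), which is 25%, beside 13.3% and 8.56% of all genes tested. The sums were 292 to 383 TPM against 245 to 280.1 TPM in the anterior and 490.0 to 512 TPM against 316 to 322 TPM in the posterior pieces. The anterior median difference of the 8 was only 0.08, and 1 was lower there at an unadjusted p under 0.05 (limma). The part of neurons and endothelium in the values of Aldoc and the other members was not tested. The X-linked members are Pgk1, Pdha1, Pdk3 and Pfkfb1, and Xist was at 25.3 and 30.9 TPM in the mutant libraries numbered 159 and at most 0.0749 TPM in the others.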

How the data were processed

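Poly-A RNA of anterior and posterior pieces of wild-type and Gcnf-/- embryos was sequenced in 8 libraries made without strand information, per the labels' protocols. CASAVA 1.8.2, STAR and the mm10 build are named in the submitters' processing notes, while the sources used here do not give the annotation, the counting tool or the treatment of shared reads. The deposited table, 1 file by the authors, holds TPM for 55421 gene identifiers, each library summing to 1000000, so a gene that takes a larger share lowers all others. Gene names, positions and exon lengths came from GENCODE M21, which matched 55240 identifiers. Of the values above 0, 98.7% to 98.9% were whole reads (tolerance 0.01 read) after multiplication by exon length and scaling, which gave the depth of a library. The values tested are TPM, so no count test was run.

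Genes with at least 1 TPM in at least 2 libraries were kept (16699), and log2(TPM + 1) was modelled by limma 3.58.1 (R 4.3.3) on the 4 groups, with a trend, 4 residual degrees of freedom and 4.68 prior ones. All tests are two-sided, and p-values were adjusted by Benjamini-Hochberg over every gene of a contrast (threshold 0.05). Adjusted p-values in the text come from this fit or a named alternative. Differences are in log2(TPM + 1), which understates low genes. All 37 members are accounted for, and the up to 4 smallest p of a contrast decided which genes of other lists are named. The members and lists were chosen with earlier results of these data known. Alternatives were a pseudocount of 0.1, no filter or one at 5 TPM, other scalings, the library number as a block, fits of only the 4 libraries compared, and leaving out each library or both of a number. Promoters came from RefSeq (GRCm38.p6).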

Additional observations from a re-analysis of the deposited data

How the results depend on the processing

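With 2 libraries a group, these counts depend on single libraries, and differences at low levels (3 reads in 1 kb are 0.2 to 0.403 TPM) could not be resolved. The main counts of members called were 17 for the anterior and 14 for the posterior genotype effect, 0 for their difference, and 4 for the region effect in each genotype. Leaving out each library in turn gave 6 to 19, 3 to 18, 0 to 1, 1 to 5 and 1 to 5. With no filter on low values the genotype counts were 7 and 6 and the mutant region count 1 (of all genes 3.26% higher and 3.06% lower). Without both libraries numbered 153 the genotype counts were 4 (3.04% and 0.957%) and 2 (0.969% and 0.135%), and both region counts 0 (2.28% and 1.23% in the wild type, 5.62% and 4.86% in the mutant). Without both numbered 159 the anterior count was 21 (13.8% and 8.56%), the difference count 1 (0.506% and 0.549%) and the mutant region count 10 (6.21% and 7.28%). The difference count was also 1 with a filter at 5 TPM (Aldoc) and with quantile normalization (Slc2a3). With that filter the posterior genotype count was 18 of 34 members, beside 10.8% of all genes higher and 4.14% lower. A fit of only the 4 libraries compared called 9 of 34 members for the wild-type region effect (10.6% and 11.8% of all genes) and 0 for that of the mutant (6% and 5.37%). It ended the anterior call of Aldoa (adjusted p = 0.0513) and the posterior calls of Pgk1 (0.0556), Pdk2 (0.0527) and Slc16a1 (0.0647).

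The labels do not say that a library number marks an embryo, so whether it pairs the samples is not known: the correlation of deviations from the group means was 0.136 for mutant and 0.0216 for wild-type libraries, while Xist was present in both libraries numbered 159 alone and the mutant erythroid sums were alike within a number. With the number as a replicate block the counts were 16, 14, 0, 4 and 3. Of all genes, 13.3% were then called higher and 10.2% lower for the anterior and 8.55% and 2.89% for the posterior genotype effect. The shares were 0.275% and 0.413% for their difference. For the region effect they were 8.07% and 6.33% in the wild type and 8.2% and 7.47% in the mutant. The block ended the anterior call of Hk1 and the mutant region call of Slc2a1 and no other call of a member. A pseudocount of 0.1 changed no call of a member.

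Signs turned only for differences that were not called. With quantile normalization Gbe1 was at -0.052 (anterior) and -0.074 (posterior), Pdk3 at 0.0064 and 0.00079, and Pfkfb1 at -0.071 (posterior). Ldha (anterior) was at 0.016 when rescaled without globin, mitochondrial and Mir6236 transcripts and at 0.066 without both libraries numbered 159. In the posterior pieces Pdk3 was at 0.0063 when so rescaled and 0.072 without both numbered 153. Gbe1 was at -0.041 with median-of-ratios scaling and -0.0597 without both numbered 159, Pgam2 at -0.40 without both numbered 159, Pdhb at 0.044 without either pair of libraries, and Pgm2 at 0.037 without both numbered 159 and 0.10 without both numbered 153. Leaving out each library in turn gave, in the anterior pieces, -0.10 to 0.27 for Pfkl, -0.0400 to 0.39 for Eno1, -0.12 to 0.23 for Eno3 and -0.13 to 0.066 for Ldha. In the posterior pieces it gave -0.055 to 0.25 for Pfkfb1, -0.40 to 2.28 for Pgam2, -0.082 to 0.072 for Pdk3, -0.067 to 0.044 for Pdhb, -0.13 to 0.10 for Pgm2 and -0.064 to 0.10 for Gbe1. The causes were not tested.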
